A study of Mus musculus with 2 samples.

Results

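The Gli3 locus was described here as the listed regions that overlap a 370 kb window of mouse chromosome 13, from 15.50 to 15.87 Mb in build mm9, by at least 1 bp. It held 71 of the 61400 regions of the list, and 3073 further regions lay elsewhere on chromosome 13. The 71 regions made up 2.26% of the regions of the chromosome, in 0.317% of its listed span. The window was selected on the positions and number of its listed regions in these same data, so its count and spacing are descriptions and were not tested. No region crossed an edge of the window.

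Gli3 encodes a zinc finger transcription factor of the Hedgehog pathway. Hedgehog ligands such as Shh and Ihh bind the receptor Ptch1 and release Smo, and without that signal the Gli3 protein is cut into a repressor of Hedgehog target genes. The gene is known for its part in limb, skull and skeletal patterning, and Ihh signalling through Gli factors takes part in the formation of bone by osteoblasts. Acetylated histone H4 is a mark of open, active chromatin, and histone deacetylases remove it.

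The study used MC3T3 sc4 cells, a line of mouse calvarial osteoblasts, in 2 chromatin immunoprecipitation libraries sequenced after pulldown with an antibody labelled as histone H4 (acetylated histone H4 in the design text). Both cultures had been switched at confluence to osteogenic medium with ascorbic acid and beta glycerol phosphate. On day 4, 1 culture received 20 µM SAHA (suberoylanilide hydroxamic acid, an inhibitor of histone deacetylases) for 2 hours and the other its solvent DMSO, and each stayed in its agent during a collagenase digest of 40 min. The SAHA library kept 123676661 tags after the limit on duplicates (97.4%) and the DMSO library 76214516 (65.6%), with 1 library per condition and no replicate. A listed region is 1 that the authors' caller found to hold more SAHA tags than the DMSO background, so every value below compares these 2 libraries, and counting intervals do not cover the spread between cultures. A stretch without a listed region may lack the mark, carry it alike in both libraries, carry more in DMSO or hold a gain below the caller's cutoff. These cannot be told apart in this list, and how well reads map to such stretches was not examined.

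By RefSeq's annotation of another build, GRCm38.p6, Gli3 lies on the plus strand, with the long noncoding RNA gene Gm6556 before it and a run of noncoding genes between it and the next protein-coding gene, Inhba, a subunit of activin. The start of the gene, its exons and these neighbours were not placed among the mm9 regions. For identity, the 250 bases before the RefSeq start of Gli3 (GRCm38.p6, chr13:15463473-15463722, plus strand) are given with each CpG in capitals, since promoters rich in CpG often carry acetylated histones:
Gli3 upstream: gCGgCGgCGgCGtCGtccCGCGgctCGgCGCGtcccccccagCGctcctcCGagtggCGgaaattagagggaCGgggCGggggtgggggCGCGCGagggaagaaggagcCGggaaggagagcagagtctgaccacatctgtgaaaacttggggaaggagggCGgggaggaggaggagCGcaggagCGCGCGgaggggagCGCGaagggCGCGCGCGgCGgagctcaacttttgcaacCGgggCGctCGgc
This stretch has 34 CpG and 72.8% G or C. The medians over the 32851 promoters of the RefSeq table are 6 CpG and 52.4%, and 3.53% of them have at least as many CpG.

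Regions higher in SAHA were spread over most of the Gli3 window, from 31.7 kb to within 3.88 kb of its end. They covered 115.0 kb, or 31.1% of the window, and held 19753 SAHA tags. On this covered part the SAHA density was 171.7 tags per kb, 2.60 times the genome average of 66.1. The packing was uneven. Of the 37 stretches of 10 kb, 9 had no covered base and 9 were covered over more than 50%.

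**Figure D1:**
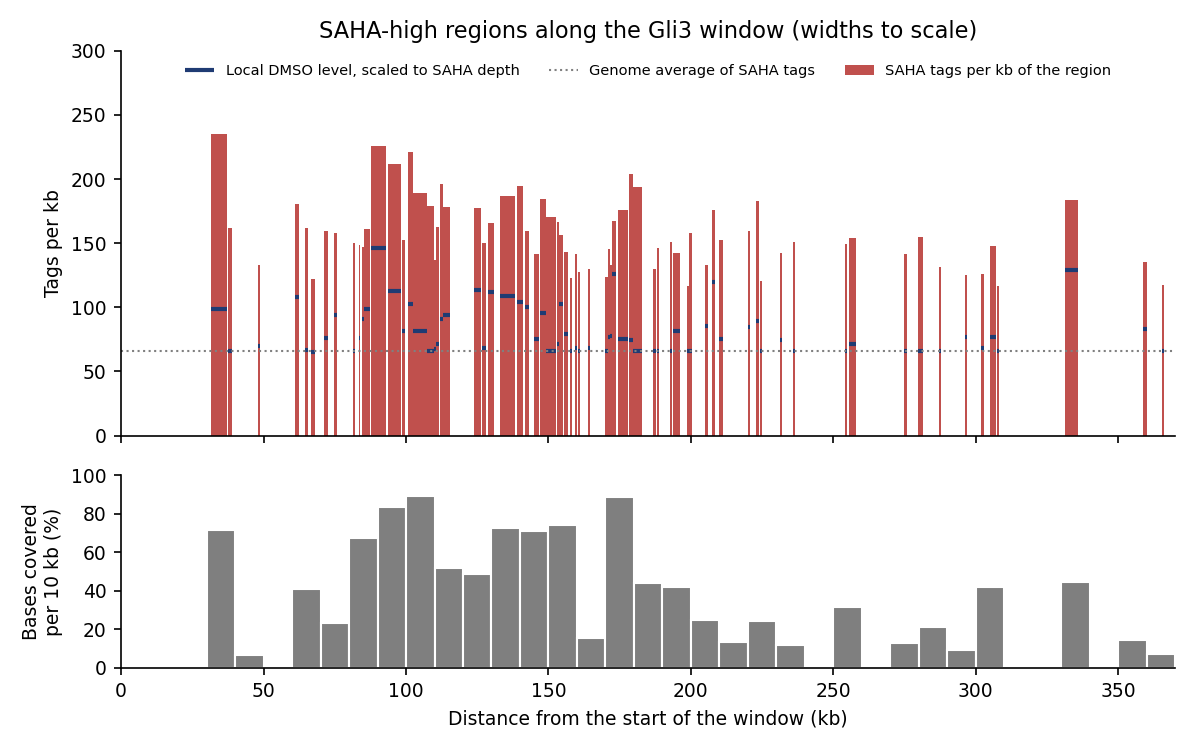
Upper panel: each bar is 1 of the 71 regions, drawn to its width, with its SAHA tags per kb as height, the local DMSO level at SAHA depth as a short blue line and the genome average as a dotted line. Lower panel: percent of bases covered in each of the 37 stretches of 10 kb. Regions are packed from about 60 to 190 kb and sparse after 240 kb.

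The locus came in 6 groups when regions were joined across gaps of up to 10 kb. The main group ran from 15560928 to 15736554 and held 56 of the 71 regions, which covered 50.5% of its 175.6 kb. Before it lay 3 regions within 17.2 kb, from 15531684 to 15548878. After it came 2 regions at 15754098 to 15758079, 7 at 15774638 to 15808115, 1 at 15831454 to 15835934 and 2 at 15858561 to 15866123. The 7 regions covered 25.6% of their 33.5 kb, a thinner packing than in the main group.

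The second of 5 equal stretches of 74 kb was the most covered. It held 23 summits and was covered to 64.0%, with a median region length of 1931 bp. The next, from 148 kb on, held 25 summits but was covered to 44.5%, and its regions had a median length of only 978 bp. The first stretch and the last 2 held 7, 9 and 7 summits and were covered to 18.1%, 12.9% and 16.0%. Median SAHA density along the 5 stretches was 161.6, 165.8, 146.2, 149.1 and 126.2 tags per kb. The ranges within the stretches overlap, and over the 71 regions density and position had a Spearman correlation of -0.40, as a description of regions that share their libraries.

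The most covered 10 kb stretches were 15600000 to 15609999, at 89.2%, and 15670000 to 15679999, at 89.0%. Between them, 15660000 to 15669999 was covered to 15.4%. Empty stretches lay over the first 30 kb of the window, at 15550000 to 15559999 and, in the later part, at 15740000, 15760000, 15810000, 15820000 and 15840000.

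The widest gap spanned 23.3 kb, from 15808115 to 15831454. The next was 22.6 kb, from 15835934 to 15858561, so the region of 15831454 to 15835934 stood alone between the 2 widest gaps. A gap of 17.5 kb closed the main group, from 15736554 to 15754098. At the other end of the main group a gap of 12.0 kb, from 15548878 to 15560928, set it apart from the first 3 regions. Within the main group the widest gaps were 8.70 kb, after 15711327, and 8.51 kb, after 15615411.

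Most neighbours in the window were close. Of the 70 gaps, 36 (51.4%) were 1 kb or shorter and 65 (92.9%) were 10 kb or shorter, against 35.9% and 69.0% of the 3071 gaps elsewhere on chromosome 13. The median gap was 899.5 bp (quartiles 210.25 and 4047.5 bp), and 2514 bp elsewhere on the chromosome. It was 1664 bp among the regions with a score of at least 100. In 17 cases the gap was 200 bp or less, and the shortest was 19 bp. Region lengths, in contrast, lay near those of the rest of the chromosome, with a median of 1194 bp (quartiles 707 and 2016.5 bp) against 1153 bp (789 and 2071 bp).

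**Figure D2:**
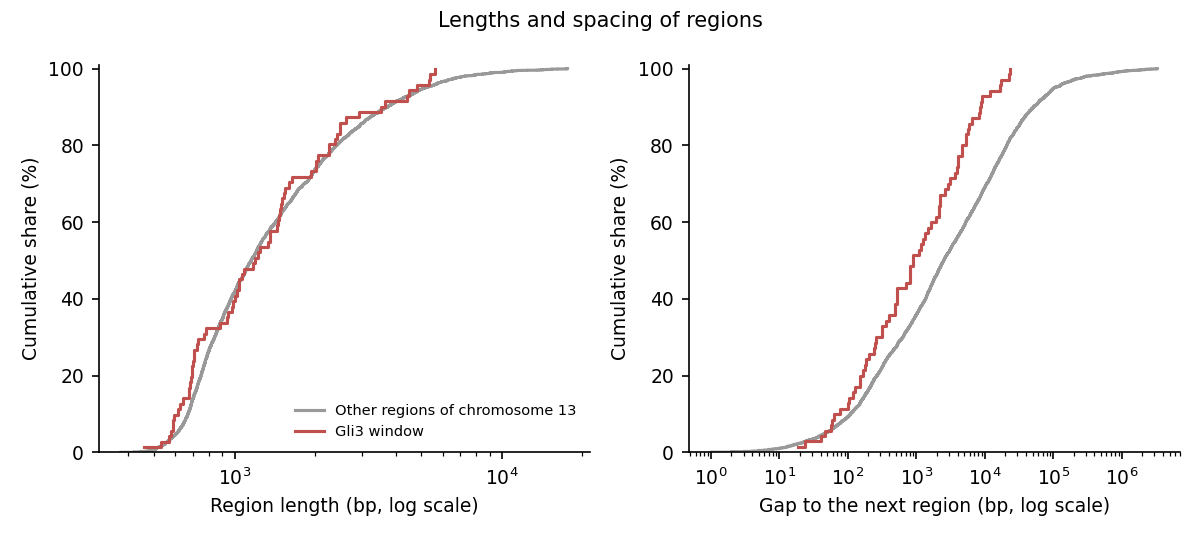
Cumulative share of regions by length in bp (left) and of gaps by size in bp (right), both on log axes, for the Gli3 window (red) and the other regions of chromosome 13 (grey). The length curves lie close from the median up to the longest Gli3 region of 5626 bp, with more short regions in the Gli3 window (lower quartile 707 against 789 bp), while the gap curve of Gli3 lies at shorter gaps, with a median of 899.5 against 2514 bp.

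Joining across gaps of up to 1 kb turned the 71 regions into 35 domains, 4 of them longer than 12 kb. The longest spanned 16.2 kb, 15583471 to 15599638, with 6 regions that covered 88.3% of it and held 2844 SAHA tags. The most filled of the 4 was 14.7 kb long, 15600726 to 15615411, with 7 regions over 95.9% of its length and 2613 tags. Its regions were split by gaps of 182, 19, 153, 62, 56 and 126 bp, each shorter than a sonicated fragment of 200 to 500 bp. The other domains of this size lay at 15644898 to 15658156 (7 regions, 86.7% covered) and 15669853 to 15682689 (7 regions, 91.4% covered). All 4 lay inside the main group.

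The 71 regions differed more in size than in density. Tags per region ran from 63 to 1323, with a median of 190, while density ran from 116.4 to 235.2 tags per kb, with a median of 152.7. The 10 regions with the most tags held 42.8% of all tags in members. Longer regions were denser (Spearman 0.67 over 71 regions, 0.73 over the other regions of the chromosome, both as descriptions). Of the members, 3 (4.23%) were longer than 5 kb, against 5.34% elsewhere on the chromosome and 7.85% of all listed regions. The share longer than 1 kb was 60.6% (43 members) against 58.2% and 66.2%.

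The first region along the chromosome, 15531684 to 15537309, was also the longest (5626 bp) and the densest. It held 1323 SAHA tags (95% Poisson interval 1253 to 1396), or 235.2 per kb, and had the highest score of the window, 1669.22, where the score is 10 times the −log10 of the caller's Poisson p. Its summit fold, the SAHA height at the summit relative to local DMSO as listed by the authors' caller, was 6.23. No listed region lay in the 112.5 kb before it, and beyond the single region there (15417978 to 15419192, 122.6 tags per kb, fold 3.75) a stretch of 1221 kb was empty. On the other side, the nearest region outside the window, 15894681 to 15897190, began 24.7 kb past its edge and had 153.4 tags per kb and a fold of 3.83. The packed part of the locus thus followed a long stretch with almost no listed region.

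The other 4 of the 5 longest regions lay at 15632949 to 15638352 (5404 bp, 1009 tags), 15587544 to 15592862 (5319 bp, 1202 tags), 15602512 to 15607311 (4800 bp, 908 tags) and 15831454 to 15835934 (4481 bp, 822 tags). After the first region, the densest were at 15587544 (226.0 tags per kb, 95% Poisson interval 213.4 to 239.1), 15600726 (220.7, interval 198.3 to 244.9), 15593670 (211.8, interval 198.4 to 225.8) and 15678303 (204.3, interval 181.0 to 229.7). These intervals overlap for all 4. The last region of the window, 15865451 to 15866123, held 79 tags, or 117.4 per kb (interval 92.9 to 146.3). This interval does not overlap that of the first region, 222.7 to 248.2. The first region was the densest of the 71, so this contrast is one with an extreme. The last is also much shorter (673 against 5626 bp), and longer regions were denser.

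Summit folds in the window were moderate. Their median was 4.28 (quartiles 3.78 and 4.875, range 2.81 to 7.83), against 3.97 (3.40 and 4.72) elsewhere on chromosome 13. A fold of 5 or more was found in 15 of 71 regions (21.1%), near the share of all listed regions, 19.0%. The 2 highest folds were neighbours, 7.83 at 15679767 to 15682689 and 7.41 at 15678303 to 15679663, and they closed the domain that ends at 15682689. The next were 6.65 at 15735939 to 15736554, 6.23 at 15531684 and 6.01 at 15607331 to 15609808. The region at 15735939 was short (616 bp, 93 tags) and was the last of the main group.

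The local DMSO background of the regions lay near that of the rest of the chromosome in the median, with fewer high levels. It was recovered from each score as the Poisson mean that gives the listed score for the listed tags, at SAHA depth, and it bounds the DMSO signal from above in the 56 of 71 regions where it equalled a background open to the caller. Its median was 1.14 times the genome average (range 0.985 to 2.21), against 1.15 elsewhere on the chromosome. Both ends of this range come from regions that equalled no such background, so they are approximate. The background was under 1.5 times the average in 58 regions (81.7%), against 73.9% elsewhere on the chromosome and 65.0% of all listed regions. It reached 2 times in 1 of 71, at 15587544, against 308 of 3068 elsewhere on the chromosome and 9835 of all 61106 with a recovered level. In 21 regions (29.6%) it was at the average or below, within 0.1%, close to the 31.4% elsewhere on the chromosome (21.8% of all). The 2 stretches from 148 kb and from 222 kb held 15 of these 21, as 9 of 25 regions in the former and 6 of 9 in the latter. The first, second and last stretches held 2 each, among 7, 23 and 7 regions.

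Counted over whole regions, SAHA tags were 1.91-fold the local DMSO level in the median (quartiles 1.75 and 2.20, range 1.32 to 2.93), against 1.84 (1.67 and 2.09) elsewhere on chromosome 13. A ratio of 2 or more was found in 28 of 71 regions (39.4%), against 28.0% of all regions with a recovered level and 32.5% of those elsewhere on the chromosome. In matched regions the ratio is a lower limit. The highest was 2.93 at 15679767 to 15682689 (interval 2.69 to 3.18 from the SAHA tags alone), where 566 SAHA tags stood against a level at the genome average. Its neighbour at 15678303 followed with 2.74 (interval 2.42 to 3.08). The next was 15607331 to 15609808, with 444 tags and 2.71 (interval 2.46 to 2.97). The intervals of these 3 overlap, so their order is not resolved.

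**Figure D3:**
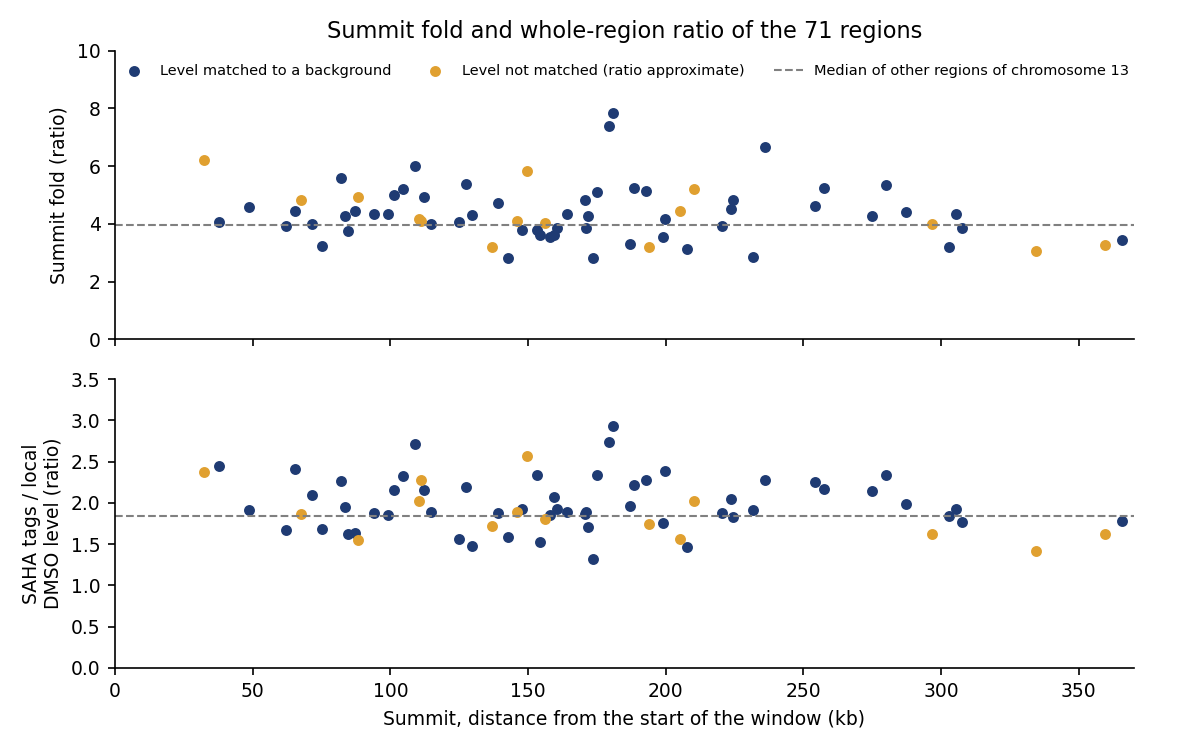
Summit fold (upper panel) and SAHA tags over local DMSO level as a ratio (lower panel) of each of the 71 regions by the distance of its summit from the start of the window in kb. Blue points have a level matched to a background and orange points an approximate one, and dashed lines are the medians of the other regions of chromosome 13, 3.97 and 1.84. The highest points of both panels lie at about 180 kb.

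High and low ratios stood side by side. At 15672264 to 15673804, in the same domain as the 2 highest ratios, 258 SAHA tags stood against 120 DMSO tags of the region itself, which is 1.32 times after scaling (exact binomial 95% interval 1.06 to 1.66), the lowest of the window. The isolated region at 15831454, among the longest, had the next lowest ratio, about 1.42, and a high DMSO level, about 1.96 times the average. Its summit fold was 3.06. It matched no background, so both values are approximate.

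Direct DMSO counts were available for 8 regions, whose background was their own DMSO tags. The largest was 15602512 to 15607311, with 908 SAHA and 241 DMSO tags, a ratio of 2.32 after scaling by 1.62 (95% exact binomial interval 2.01 to 2.69). At 15647091 to 15649142, 379 SAHA and 121 DMSO tags gave 1.93 (interval 1.57 to 2.39), and at 15804883 to 15807252, 350 and 112 tags gave the same ratio of 1.93 (interval 1.55 to 2.40). The intervals of the last 2 nearly coincide, although the regions lie in different groups. The remaining 4, besides the region of the lowest ratio, held 79 to 98 SAHA and 25 to 32 DMSO tags, with ratios of 1.89 to 1.95. Their binomial intervals are wide, with lower ends of 1.21 to 1.25 and upper ends of 2.91 to 3.19.

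Summit heights could be read as whole numbers of stacked fragments in the 56 matched regions, each within 0.1 of a whole number. They ran from 30 to 78, with a median of 47.5. The 2 highest of these 56, 78 and 73, belonged to 15678303 and 15679767, whose folds were also the highest. Taller summits, of about 101.8 and 86.9, were computed for the unmatched regions at 15587544 and 15531684, where the height is approximate. A height of 72 at 15600726 came with a fold of 4.99 only, beside a DMSO level of 1.55 times the average.

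The deposited FDR was high for every member, from 58.25% to 100%, with a median of 67.54%. This holds for the whole list, where it ran from 58.23% to 100% with a median of 68.08%. It stood at 100% in 7 of 71 regions (9.86%), against 11.6% of all listed regions. As MACS is known to define it (the header of the list gives no definition), a value of 100% means that exchanging SAHA and DMSO gave at least as many regions of equal or better score. These 7 were the highest in score, and 5 of them, at 15531684, 15602512, 15679767, 15649221 and 15674333, had scores of 1669.22, 1096.69, 1042.72, 896.53 and 787.05. A score of 100 or more was reached by 49 regions (69.0%), against 62.5% of all listed regions.

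Among 314 windows of the same size tiled over chromosome 13, the Gli3 window had the second highest number of regions. The median window held 3.5 regions, 116 windows held none, and the highest, 102450235 to 102820235, held 84. In covered bases Gli3 ranked 7th, at 31.1% against a median of 1.08% and a highest value of 49.3%. The windows on its left held 1, 0 and 0 regions, and those on its right 13, 25 and 24. The packing at Gli3 did not continue at its level in the windows on either side. The window was selected for its regions and the tiling started from it, so this follows in part from that choice.

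As listed, its regions were many rather than long. Joined across gaps of up to 1 kb, they made 35 domains of up to 16.2 kb. Lengths after joining were not compared between windows. Among the 198 windows with a region, the Gli3 window ranked 54th by its longest region and 80th by median length, and its SAHA density per covered kb ranked 104th. Against the other 9 of the 10 windows with the most regions, its longest region of 5626 bp compared with 3891 to 17600 bp (median 10110 bp), and 6 of the 9 had a longer one. Its median fold of 4.28 was exceeded in 2 of the 9 and its median ratio of 1.91 in 3. Its widest gap, 23.3 kb, was exceeded in 8 of the 9.

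**Figure D4:**
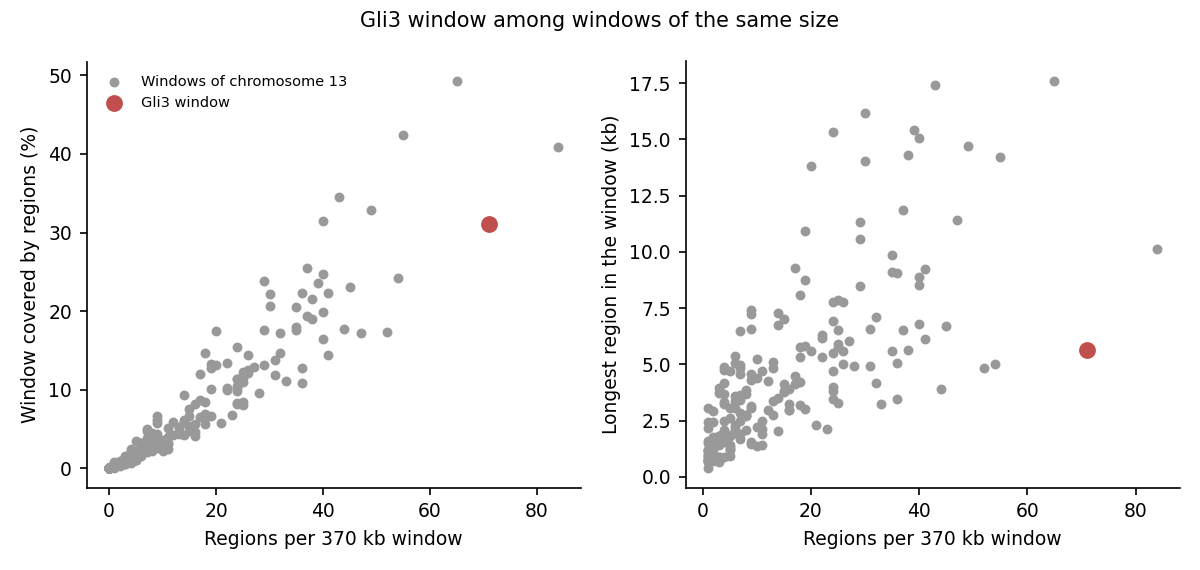
Each point is 1 of 314 windows of 370 kb on chromosome 13 (right panel: the 198 with a region), by its number of regions and the percent of bases covered (left) or the longest region in kb (right). The Gli3 window (red) has 71 regions, 31.1% coverage and a longest region of 5.63 kb, below most windows with 40 or more regions in the right panel.

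The main group of 56 regions ranked 4th in size among the 19740 groups of the whole list. The 3 larger ones, held 81, 80 and 65 regions. They lie on chromosome 5 (5084663 to 5369300), on chromosome 7 (89491921 to 89774247) and on chromosome 4 (97453054 to 97679569). They spanned 284.6, 282.3 and 226.5 kb, and the Gli3 group held 31.9 regions per 100 kb against 28.5, 28.3 and 28.7. By spacing and coverage it was not the most packed of the 4. Its median gap was 528 bp against 1225, 395 and 706.5 bp, and 60% of its gaps were 1 kb or shorter against 47.5%, 72.2% and 60.9%. Its covered share was 50.5% against 49.5%, 65.1% and 57.2%. Its covered part was the least dense, at 172.4 SAHA tags per kb against 201.5, 202.0 and 191.8. Its highest DMSO level, about 2.21 times the average in an unmatched region, was below their highest levels of 3.09, 3.40 and 2.77. The median ratio of SAHA to DMSO level, 1.89, lay within their range of 1.82 to 2.03, and the median fold, 4.28, was close to theirs of 4.29, 4.365 and 4.29.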

How the data were processed

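The members and lists were chosen with earlier results of these data known. Tag counts, scores, fold ratios and FDR percent values are those the authors deposited. The tools were MACS 1.4.0rc2, SAMtools, BWA 0.5.9 and CASAVA 1.7.0 with build mm9, per the submitters' processing notes. Per the file headers, MACS took the SAHA reads as ChIP and the DMSO reads as control, with a p cutoff of 1e-05, at most 3 duplicates per position and the smaller library scaled to the larger. The deposited score, 10 times the −log10 of a Poisson p, was solved for the local DMSO level with scipy 1.17.1, numpy 2.4.6 and pandas 2.3.3 in Python 3.11.15, checked on simulated lists. A level matched a background when it equalled, within the score's rounding (0.005), the genome average, or scaled DMSO tags that are whole in number over the region, 1 kb or 10 kb. The 15 unmatched levels are approximate, and 1 lies below the genome average, lower than the caller can go. The simulated levels were all drawn from these backgrounds, so that check does not cover the 15. Poisson and exact binomial intervals (95%) of tags cover counting error only. Order-statistic intervals (95%) of medians cover the spread among regions that share their libraries. Neither kind covers the spread between cultures. Windows were tiled from the Gli3 window over the listed span of chromosome 13. Regions named are the first and last, the 5 highest by length, fold, density and score, those beside the 3 widest gaps, and the most and least covered 10 kb stretches. Others were named after their values were seen: the lowest ratios, the edges of groups and domains, regions with their own DMSO count, and a summit height. The planned count over Hedgehog pathway genes was not run, since no annotation of build mm9 was used here.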

Additional observations from a re-analysis of the deposited data

How the results depend on the processing

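No paired analysis was possible because each condition has 1 library, and no library could be left out. The 20 alternatives were planned, and 13 left the value within its interval (within 1.5 times for the count). The intervals of medians treat neighbouring regions of the same libraries as separate, so they serve as a yardstick only. At a score of at least 100 the covered share was 26.5%, the median length 1487 bp and the median ratio to the DMSO level 2.07. The median gap rose from 899.5 to 1664 bp, 1 of the 13 that stayed within the interval (494 to 2146 bp) but over 1.5 times the reported value. With regions less than 1 kb apart joined, 35 remained, 1503 bp long in the median and 4105 bp apart. Without depth scaling the median ratio was 3.10. Stricter limits, joining and dropping the scale factor move these values by construction. The percentile of the region count among windows was 99.5, and it ran from 99.2 at a score of at least 100 to 99.7 over 6408 windows of the autosomes, of which 17 held more regions. Short regions of under 100 tags limit single ratios most, as their counting intervals show.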

Other observations

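The summits of the Gli3 regions lay between 25% and 75% of the region length in 54 of 71 cases. This share was not computed for other regions, so it is not shown to be particular to the window. In 12 regions the summit lay before this range and in 5 after it. The 3 longest regions had summits at 9.95%, 73.6% and 11.4% of their length, so the highest point of the longest and of the region at 15587544 lay near their starts.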
